A study of Homo sapiens with 6 samples.

Results

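The genes described here are 38 genes of the lysosome: 16 genes of the vacuolar H+-ATPase (V-ATPase), 6 proteases, 6 glycosidases, 3 genes of lysosomal lipid handling, 5 lysosomal membrane proteins, and the transcription factors TFEB and TFE3. They were chosen by symbol, and all 38 were found among the 20289 rows of the deposited expression table. The table holds RNA sequencing of RKO cells, a long-established line from a human colorectal cancer, in 2 groups of 3 libraries. The shTRMT6 cells carried a short hairpin RNA against TRMT6, a subunit of the tRNA m1A methyltransferase, and the shControl cells carried a control hairpin and are entered as WT in the cell type field of the labels. Both groups are the same line, with no further treatment named. Hairpin sequences, whether the cells are a pool or 1 clone, and whether the replicates are separate cultures are not given in the sources used here, so every p-value below rests on how far these 6 libraries spread, and that spread may be technical. The comparison asks what the TRMT6 hairpin did to mRNA levels, and within it the V-ATPase is set beside the hydrolases and membrane proteins.

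Lysosomes digest proteins, glycans and lipids with hydrolases that work at acid pH. The acid is made by the V-ATPase, a rotary pump in which the cytosolic V1 sector hydrolyses ATP and turns a rotor that drives protons through the membrane-bound V0 sector. V1 and V0 can separate and reassemble, which is a known way of switching the pump. Many genes of both kinds carry a CLEAR element, an extended E-box bound by the MiT factors TFEB and TFE3, and the finished lysosomal surface is also the platform on which mTORC1 senses amino acids.

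The promoters were searched for exact letters from that element, so other forms of it were not counted. Promoter entries (250 bases before to 50 bases after the gene start, RefSeq, GRCh38.p14) matched 29 of the 38 members. Those without an entry were the V1 genes ATP6V1A, ATP6V1B2, ATP6V1C1 and ATP6V1H, with ATP6V0E1, CTSB, HEXA, LAMP2 and PSAP. The 8 letters TCACGTGA read the same on both strands and contain the E-box core CACGTG. They were found in 6 of those 29 (20.7%), against 1.18% of the 27305 genes with an entry and 2.55% of the 8670 tested genes with an entry. A gene was counted once if any of its promoters held the letters. The core, with or without the flanking letters, was found in 9 of the 29 members (31%), against 8.77% of all genes with an entry and 13.2% of the tested genes. The windows below are 30 bases long, read 5′ to 3′ on the gene's strand, with the 8 letters in capitals; they are shown because the 6 genes span the pump, the hydrolases and the membrane proteins.
ATP6V1G1, chr9:114587699-114587728, plus strand: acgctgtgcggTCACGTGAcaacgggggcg
ATP6V0D1, chr16:67481199-67481228, minus strand: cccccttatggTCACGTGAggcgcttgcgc
GAA, chr17:80101493-80101522, plus strand: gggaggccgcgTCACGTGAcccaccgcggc
GAA, chr17:80101538-80101567, plus strand: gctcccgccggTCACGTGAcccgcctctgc
CTSA, chr20:45891298-45891327, plus strand: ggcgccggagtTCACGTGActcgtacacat
LAMP1, chr13:113297199-113297228, plus strand: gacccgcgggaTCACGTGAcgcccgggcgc
LAMP1, chr13:113297226-113297255, plus strand: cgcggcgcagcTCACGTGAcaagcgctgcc
MCOLN1, chr19:7522571-7522600, plus strand: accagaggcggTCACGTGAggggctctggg
MCOLN1, chr19:7522598-7522627, plus strand: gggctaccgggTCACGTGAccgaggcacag

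GAA, LAMP1 and MCOLN1 held the 8 letters at 2 places and the other 3 genes at 1. The matches began 2 (LAMP1) to 77 (GAA) bases upstream of the annotated gene start. As shown with their values below, the mRNAs of ATP6V1G1 and ATP6V0D1 rose with the TRMT6 hairpin, and those of GAA, CTSA, LAMP1 and MCOLN1 did not pass the test. Over all tested genes with the 8 letters, 72 of 221 (32.6%) passed the test, with a median log2 fold change of 0.04. Over all tested genes the share was 35.4%, with a median of 0.02.

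Values are FPKM (fragments per kilobase of transcript scaled to a fixed number of mapped fragments), which can be set side by side between genes. TRMT6 itself was at 1.58, 1.73 and 1.09 FPKM in shTRMT6 libraries 1, 2 and 3, against 14.43, 17.96 and 16.85 FPKM in shControl libraries 1, 2 and 3, so the targeted mRNA went with the labels (11.2-fold lower; log2 fold change −2.82, SE 0.13, limma adjusted p = 4.33e-08; the exact permutation test gave p = 0.1, the smallest that 3 libraries against 3 allow). Estimated depth was 18 to 20.1 M fragments (mega) in shTRMT6 libraries and 21.3 to 28.2 M in shControl libraries; these are rough figures from the steps between low values. In all, 10592 genes were tested with limma on log2(FPKM + 1), with Benjamini-Hochberg adjustment over all of them and a threshold of 0.05. Of these, 3746 (35.4%) passed, 2042 (19.3%) higher and 1704 (16.1%) lower in shTRMT6. All fold changes below are on this log2(FPKM + 1) scale, shTRMT6 over shControl, and all adjusted p-values come from this fit unless another setting is named. The epithelial markers KRT18, KRT8, EPCAM and CDX2 were present, while CDH1, CDX1, KRT19, KRT20, LGR5, MUC2 and VIL1 were listed at 0 in all 6 libraries. Leukocyte (PTPRC, CD3E, CSF1R, AIF1, CD163, CD14, CD79A), endothelial (PECAM1, VWF, CDH5, KDR) and fibroblast markers were at or near 0. None of these had a value above 0.65 FPKM (COL1A1 in shControl library 3). The exception was CD68, also on the leukocyte list, with a mean of 799 FPKM over all libraries. Its values are given at the end. In bulk libraries a change in the number of cells of a kind and a change in mRNA per cell cannot be told apart.

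All 38 members had a mean of at least 1 FPKM and were tested. Of the 38, 9 rose, 2 fell and 27 did not pass (28.9% past the threshold, against 35.4% of all tested genes), and the median log2 fold change was −0.02, against 0.02 over all tested genes. The 11 changes were unevenly placed. The V-ATPase had 9 of its 16 genes higher and 1 lower with a median of 0.32, while the 20 hydrolases, helpers and membrane proteins had none higher and 1 lower with a median of −0.12. With the replicate number as a block, 8 of these 20 were lower and 1 higher, and the V-ATPase counts stayed at 9 and 1. The block also raised the count of calls over the whole table, as given below. Within the pump, 8 of 8 V1 genes rose (median 0.47), and the 6 V0 genes had 1 higher and 1 lower, with a median of −0.10. The values of the 2 groups did not overlap for 12 members (48.3% of all tested genes had no overlap), 10 of them higher in shTRMT6 (26.2% of all tested genes were higher without overlap) and 2 lower (22.1% of all tested genes).

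**Figure D1:**
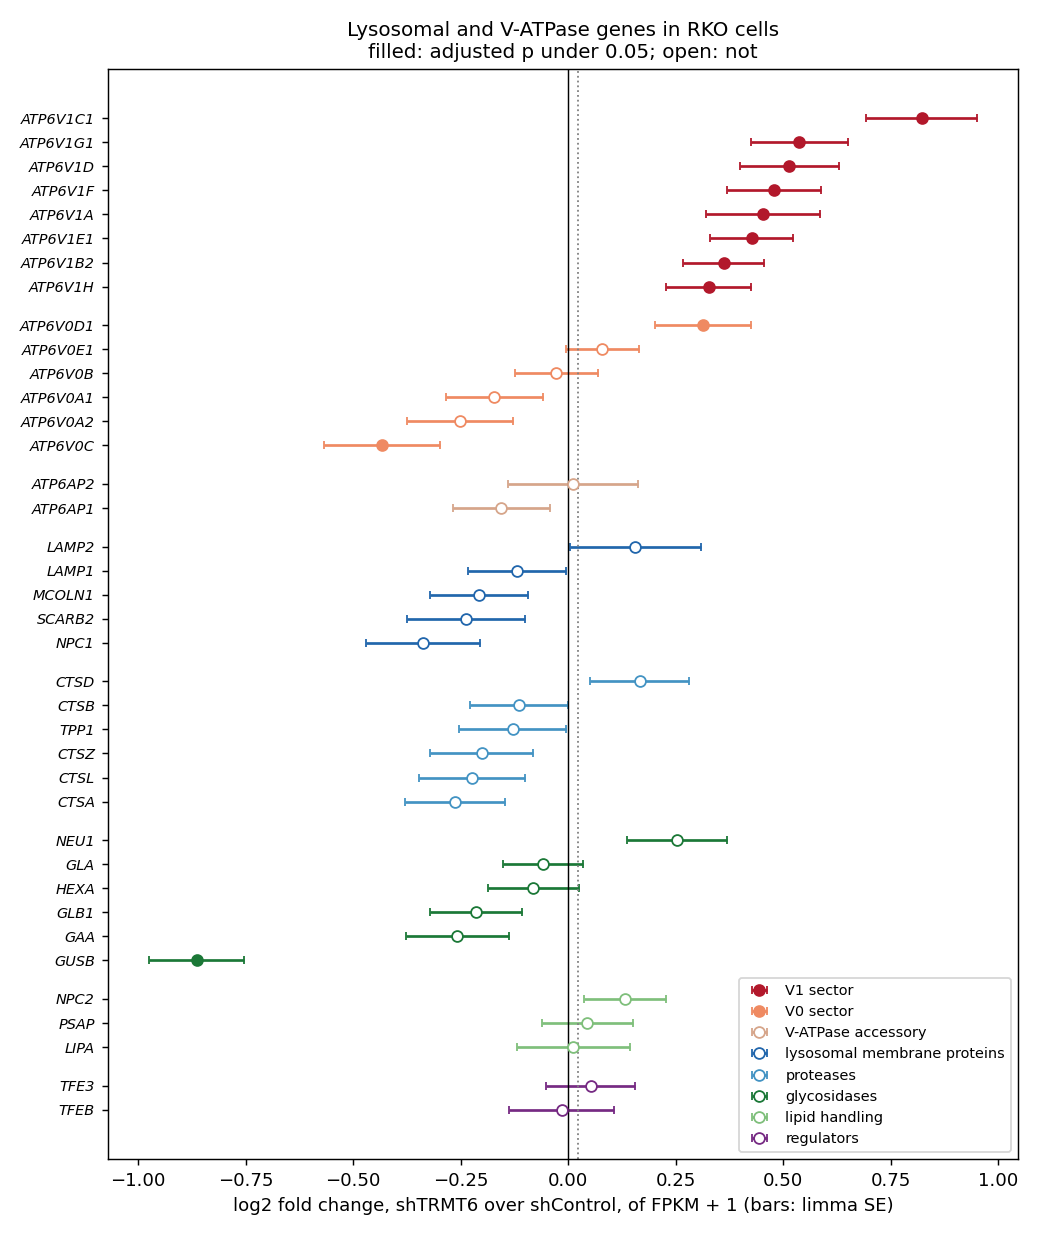
Log2 fold change of each of the 38 genes (horizontal axis, shTRMT6 over shControl, of FPKM + 1; bars are the limma SE; n = 3 libraries per group), by role. Filled points passed an adjusted p of 0.05 and open points did not; the dotted line is the median of all tested genes, 0.02. The 8 V1 genes lie between 0.33 and 0.82, and GUSB stands alone at −0.86.

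The V1 sector does the catalysis, and its A and B subunits form the ATP-hydrolysing ring. ATP6V1A, the catalytic subunit, was at 16.59, 15.57 and 13.38 FPKM in shTRMT6 libraries 1, 2 and 3, against 8.83, 12.69 and 11.14 FPKM in shControl libraries 1, 2 and 3 (log2 fold change 0.45, SE 0.13, adjusted p = 0.0187). ATP6V1B2, the B subunit used in most tissues, was at 64.52, 63.65 and 56.1 FPKM in shTRMT6 libraries, against 46.85, 48.38 and 47.18 FPKM in shControl libraries (0.36, SE 0.09, adjusted p = 0.00983). Neither gene had overlapping groups, and both rose: ATP6V1A by a ratio of mean FPKM of 1.39 and ATP6V1B2 by 1.29.

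The largest change among the members in the upward direction was in ATP6V1C1, a subunit of the stator that links V1 to V0 and is released when the sectors part. ATP6V1C1 was at 46.1, 50.79 and 39.04 FPKM in shTRMT6 libraries, against 21.06, 28.82 and 25.87 FPKM in shControl libraries (means 45.3 ± 5.91 and 25.3 ± 3.92, SD, n = 3 each). That is a ratio of 1.79, with a log2 fold change of 0.82 (SE 0.13, adjusted p = 0.00051), and the lowest shTRMT6 library stood above the highest shControl library. ATP6V1H, a regulatory subunit that couples ATP hydrolysis to the assembled state, had the smallest change of the sector, with 40.26, 42.91 and 36.55 FPKM in shTRMT6 libraries against 30.37, 32.03 and 32.29 FPKM in shControl libraries (0.33, SE 0.10, adjusted p = 0.0203).

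The peripheral stalks are made of E and G subunits, and the central rotor of D and F. ATP6V1E1 was at 66.04, 69.85 and 62.07 FPKM in shTRMT6 libraries, against 50.08, 51.72 and 44.81 FPKM in shControl libraries (0.43, SE 0.10, adjusted p = 0.00474). ATP6V1G1, whose promoter window is shown above, was at 67.29, 80.33 and 59.35 FPKM in shTRMT6 libraries, against 45.26, 49.94 and 45.48 FPKM in shControl libraries (0.54, SE 0.11, adjusted p = 0.00306). Both stalk genes rose without overlap of the groups. ATP6V1D, of the rotor, was at 39.39, 39.65 and 36.43 FPKM in shTRMT6 libraries, against 22.4, 30.36 and 27.71 FPKM in shControl libraries (0.51, SE 0.12, adjusted p = 0.0044). ATP6V1F, the other rotor gene and the most abundant V1 mRNA, was at 380.33, 350.2 and 348.82 FPKM in shTRMT6 libraries, against 305.91, 241.54 and 231.33 FPKM in shControl libraries (0.48, SE 0.11, adjusted p = 0.00483). The rotor genes also rose without overlap, and for ATP6V1F the gap was set by shControl library 1, the highest of its group.

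In 17 other ways of processing the table, all 8 V1 log2 fold changes stayed above 0, and ATP6V1C1, ATP6V1D, ATP6V1E1, ATP6V1F and ATP6V1G1 passed the test each time. The count of V1 genes called was 5 of 8 without shTRMT6 library 1, where ATP6V1A (adjusted p = 0.0861), ATP6V1B2 (0.0623) and ATP6V1H (0.0795) missed the threshold. It was 6 of 8 without shTRMT6 library 2, where ATP6V1A (0.0545) and ATP6V1H (0.107) missed it, and 7 of 8 without shControl library 1, where ATP6V1A (0.0506) missed it. With no filter on low values ATP6V1A missed it as well (0.0713).

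The membrane-bound V0 sector moved in both directions. ATP6V0C, the proteolipid of the rotating c-ring through which protons pass, was at 250.94, 183.38 and 252.88 FPKM in shTRMT6 libraries, against 358.19, 267.69 and 299.29 FPKM in shControl libraries (log2 fold change −0.43, SE 0.13, adjusted p = 0.0243). ATP6V0C fell, with a mean 1.35-fold lower and no overlap between the groups. Without shTRMT6 library 2 its adjusted p was 0.126, and without shControl library 1 it was 0.0895. The ATP6V0C value is uncertain, because 84.7% of the 75-base windows of its longest transcript also occur in other genes annotated at the locus (AC093525.2 and AC093525.1), so its fragments could be divided between them. GENCODE release 29 (GRCh38) places ATP6V0C at chr16:2513870-2520218 on the plus strand and ATP6V0D1 on the minus strand of the same chromosome.

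ATP6V0D1, which joins the c-ring to the central rotor, was at 125.31, 123.78 and 111.69 FPKM in shTRMT6 libraries, against 113.07, 93.62 and 84.72 FPKM in shControl libraries (0.31, SE 0.11, adjusted p = 0.0421). Its groups overlapped, since shTRMT6 library 3 lay below shControl library 1. Although it rose by this test, the call was lost in 7 of the 17 alternatives, with adjusted p-values of 0.143 without shTRMT6 library 1, 0.12 without shTRMT6 library 2, 0.104 without shControl library 2 and 0.168 without shControl library 3.

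The other V0 genes did not pass. ATP6V0A1 and ATP6V0A2, isoforms of the a subunit that forms the path for protons, had log2 fold changes of −0.17 (adjusted p = 0.256) and −0.25 (adjusted p = 0.129). ATP6V0A2 had the lowest level of the pump, with 6.32, 5.79 and 6.16 FPKM in shTRMT6 libraries against 6.24, 7.89 and 8.33 FPKM in shControl libraries, and only shControl library 1 lay inside the shTRMT6 range. ATP6V0B, the c″ subunit of the ring, differed by −0.03 (SE 0.10, adjusted p = 0.851). ATP6V0E1, a small subunit, was at 114.9, 116.87 and 119.24 FPKM in shTRMT6 libraries, against 109.6, 110.04 and 112.44 FPKM in shControl libraries: the groups did not overlap, but the difference was small (0.08, SE 0.08, adjusted p = 0.493). Of the accessory subunits, ATP6AP1 (Ac45) differed by −0.16 (adjusted p = 0.301) and ATP6AP2, the (pro)renin receptor, by 0.01 (SE 0.15, adjusted p = 0.967).

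**Figure D2:**
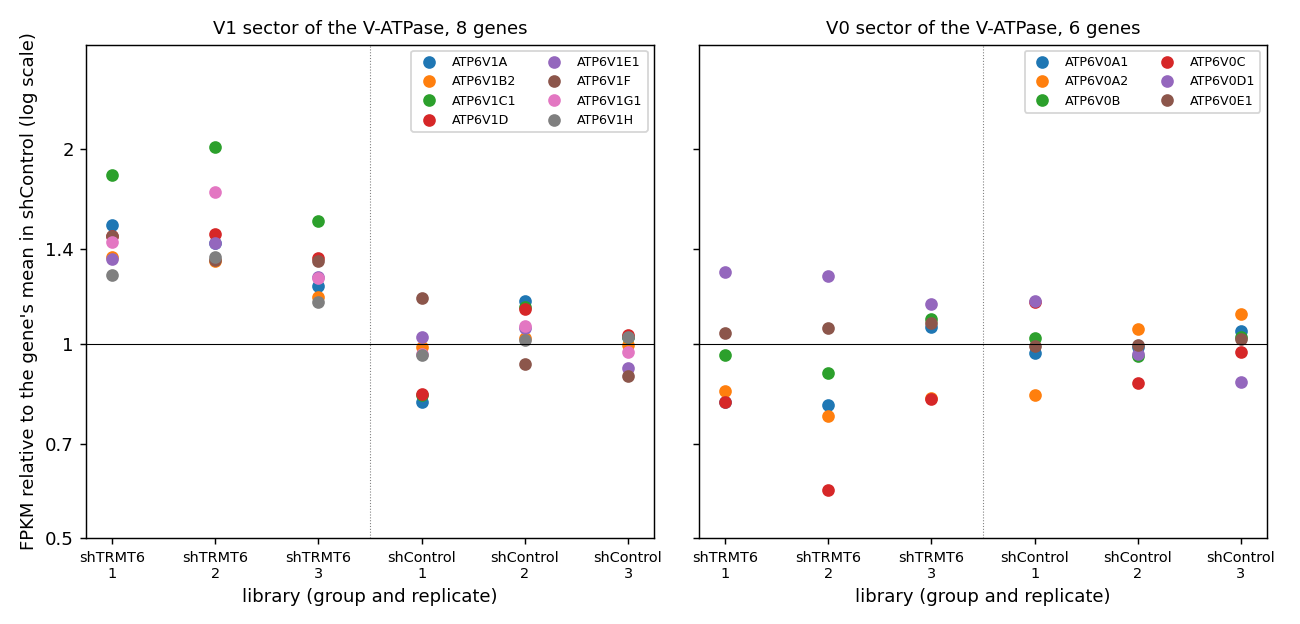
FPKM of each V1 gene (left panel) and V0 gene (right panel) in every library, divided by that gene's mean in shControl (vertical axis, log scale; each point is 1 gene in 1 library). All V1 points of the shTRMT6 libraries lie above 1, and the V0 points of both groups lie on both sides of 1, with ATP6V0C lowest in shTRMT6 library 2.

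Summed over the sector, V1 mRNA reached 720.52, 712.95 and 651.74 FPKM in shTRMT6 libraries 1, 2 and 3, against 530.76, 495.48 and 465.81 FPKM in shControl libraries 1, 2 and 3. Summed V0 mRNA was 737.84, 657.80 and 770.36 FPKM in shTRMT6 libraries, against 847.76, 727.81 and 770.56 FPKM in shControl libraries. The ratio of the V1 sum to the V0 sum was therefore 0.977, 1.08 and 0.846 in shTRMT6 libraries, against 0.626, 0.681 and 0.605 in shControl libraries. The ratios did not overlap, and ATP6V1F and ATP6V0C, the most abundant member of each sector, weigh most in them. The V0 sum, and with it each ratio, carries the uncertainty of the ATP6V0C value given above. The ratio was not computed without ATP6V1F and ATP6V0C.

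Most V1 transcripts were poorer in G and C than the rest, and fold changes across the table moved with GC content. The median GC content of the longest annotated transcript was 43.6% for the V1 genes, 55.1% for the V0 genes, 51.6% for the hydrolases, helpers and membrane proteins, and 48.4% for all tested genes. Across 10573 tested genes the correlation of log2 fold change with GC content was −0.387, and across the 16 V-ATPase genes it was −0.555; these are descriptions across genes of the same 6 libraries, and genes are not independent replicates. The trend of each library on GC was not the same within a group: per 10 points of GC it was −0.07, −0.15 and −0.03 in shTRMT6 libraries 1, 2 and 3, and 0.22, −0.004 and 0.03 in shControl libraries 1, 2 and 3, on the log2 scale, so that shControl library 1 stood farthest from 0. Set against the median of the tested genes within 2 GC points of it, each V1 gene was higher, by 0.13 (ATP6V1B2) to 0.59 (ATP6V1C1).

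After each library's smooth trend on GC content was removed, 6 of the 8 V1 genes passed, with a median log2 fold change of 0.39. ATP6V1A (0.26, adjusted p = 0.0512) and ATP6V1B2 (0.16, adjusted p = 0.137) missed the threshold, and ATP6V1F, the one V1 gene rich in GC at 54.3%, became larger (0.62, adjusted p = 0.000539). In the V0 sector ATP6V0C missed the threshold (−0.25, adjusted p = 0.0618), ATP6V0D1 passed (0.48, adjusted p = 0.0024) and ATP6V0A2 was lower (−0.38, adjusted p = 0.0105). With the GC correction and the replicate number as a block, 8 of 8 V1 genes passed. What part GC content has in the V1 result beyond these values was not tested.

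**Figure D3:**
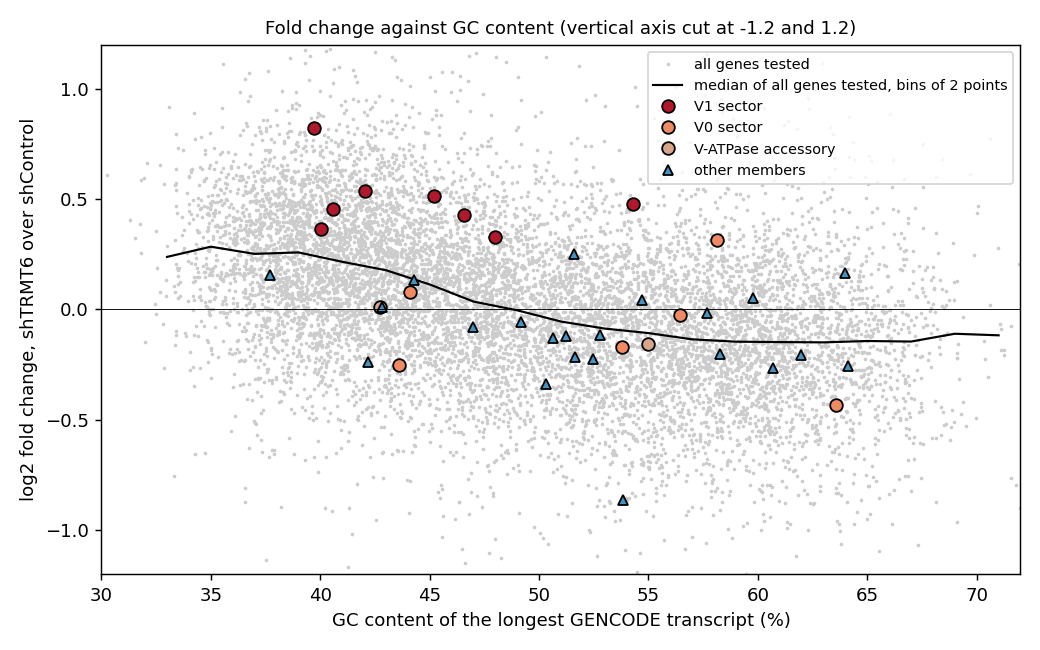
Log2 fold change (vertical axis, shTRMT6 over shControl, of FPKM + 1) against the GC content in percent of each gene's longest annotated transcript (horizontal axis). Grey points are all tested genes with a GC value, the line is their median in bins of 2 points, and coloured points are the 38 genes; the 8 V1 points lie above the line, also ATP6V1F at 54.3% GC.

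Among the hydrolases the 1 change past the threshold was in GUSB, beta-glucuronidase, which removes glucuronic acid from glycosaminoglycans and whose mRNA is also a common reference in quantitative PCR. GUSB was at 24.39, 24.22 and 30.97 FPKM in shTRMT6 libraries, against 48.67, 46.44 and 51.38 FPKM in shControl libraries (means 26.5 ± 3.85 and 48.8 ± 2.47, SD, n = 3 each). It fell, with a mean 1.84-fold lower in shTRMT6 and a wide gap between the groups (log2 fold change −0.86, SE 0.11, adjusted p = 0.000149). The GUSB call held in all 17 alternatives, with log2 fold changes of −0.98 to −0.73. GENCODE release 29 (GRCh38) places it at chr7:65960684-65982314 on the minus strand, and 0.403% of its 75-base windows also occur in the GUSB pseudogenes GUSBP2 and GUSBP9.

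The other 5 glycosidases did not pass. NEU1, the sialidase that trims sialic acid from lysosomal glycoproteins, was at 48.65, 47.63 and 63.6 FPKM in shTRMT6 libraries, against 42.81, 42.59 and 47.25 FPKM in shControl libraries. Its groups did not overlap, with shTRMT6 library 2 just above shControl library 3, and the log2 fold change was 0.25 (SE 0.12, adjusted p = 0.106). GAA, which digests lysosomal glycogen, was at 35.93, 31.44 and 44.23 FPKM in shTRMT6 libraries, against 47.25, 42.97 and 42.63 FPKM in shControl libraries (−0.26, SE 0.12, adjusted p = 0.11), with shTRMT6 library 3 inside the shControl range. GLB1, the beta-galactosidase read out in senescence staining, had −0.21 (adjusted p = 0.134), HEXA, the alpha chain of beta-hexosaminidase, −0.08 (adjusted p = 0.585), and GLA, the alpha-galactosidase lost in Fabry disease, −0.06 (SE 0.09, adjusted p = 0.659).

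NEU1 works in a complex with GLB1 and CTSA, cathepsin A, which protects both. The 3 genes of that complex did not share a direction: CTSA was at 194.82, 179.08 and 245.19 FPKM in shTRMT6 libraries, against 254.95, 225.03 and 258.67 FPKM in shControl libraries (−0.26, SE 0.12, adjusted p = 0.0922). CTSA also shares 40.3% of its windows with NEURL2, PLTP and AL008726.1 together, so its level is uncertain.

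None of the 6 proteases passed, and their median log2 fold change was −0.16. The aspartic protease CTSD was the most abundant of them, with 256.73, 240.43 and 332.21 FPKM in shTRMT6 libraries against 252.8, 232.99 and 246.16 FPKM in shControl libraries (0.17, SE 0.11, adjusted p = 0.276). Only shTRMT6 library 3 stood well apart there, and 60.1% of the CTSD windows also occur in the genes AC068580.4 and AC068580.3. The cysteine cathepsins were on the other side of 0, with log2 fold changes of −0.11 for CTSB (adjusted p = 0.457), −0.22 for CTSL (adjusted p = 0.174) and −0.20 for CTSZ (adjusted p = 0.207). TPP1, a tripeptidyl peptidase lost in a form of Batten disease, had −0.13 (SE 0.12, adjusted p = 0.443).

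The lipid-handling genes lay near 0. PSAP, the precursor of the saposins that present sphingolipids to their hydrolases, was the most abundant of the 38 mRNAs, with 567.99, 618.68 and 741.75 FPKM in shTRMT6 libraries against 591.18, 610.26 and 657.95 FPKM in shControl libraries (0.04, SE 0.11, adjusted p = 0.771). The PSAP groups overlapped, and PSAP made up 27 to 30.9% of the summed mRNA of the 15 hydrolases and helpers in every library. NPC2, the soluble cholesterol carrier, had a log2 fold change of 0.13 (SE 0.10, adjusted p = 0.302), and LIPA, the acid lipase, 0.01 (SE 0.13, adjusted p = 0.954).

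None of the 5 membrane proteins passed, with a median log2 fold change of −0.21. NPC1, which takes cholesterol from NPC2 and exports it, came nearest to the threshold, with 20.69, 23.48 and 29.24 FPKM in shTRMT6 libraries against 26.64, 32.3 and 34.24 FPKM in shControl libraries (−0.34, SE 0.13, adjusted p = 0.0623). Its groups overlapped because shTRMT6 library 3 lay above shControl library 1. LAMP1 and LAMP2, the main glycoproteins of the lysosomal membrane, had log2 fold changes of −0.12 (adjusted p = 0.435) and 0.16 (SE 0.15, adjusted p = 0.444). SCARB2, the receptor that carries glucocerebrosidase to the lysosome, had −0.24 (adjusted p = 0.193), and MCOLN1, the calcium channel TRPML1, −0.21 (adjusted p = 0.173).

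**Figure D4:**
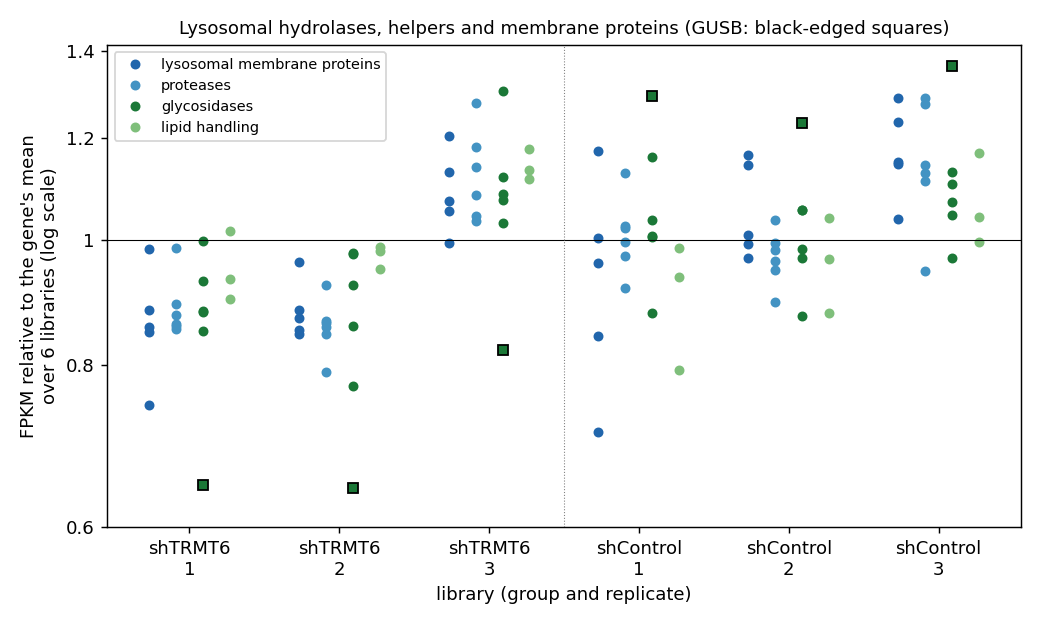
FPKM of the 20 hydrolases, helpers and membrane proteins in every library, divided by each gene's mean over the 6 libraries (vertical axis, log scale; each point is 1 gene in 1 library; GUSB as black-edged squares). Library 3 is the highest of its group for 20 of the 20 genes in shTRMT6 and for 17 of the 20 in shControl, and GUSB is the gene whose groups lie far apart.

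These 20 genes moved together between replicates. shTRMT6 library 3 was the highest of its group for 20 of 20 of them, against 28.1% of all tested genes, and shControl library 3 was the highest of its group for 17 of 20, against 26.6% of all tested genes. The V1 genes went the other way in the shTRMT6 group, where library 3 was the lowest for 8 of 8, against 47.7% of all tested genes. Summed over the 15 hydrolases and helpers, the libraries held 1996.96, 2005.34 and 2516.80 FPKM in shTRMT6, against 2185.98, 2143.56 and 2423.09 FPKM in shControl, so that shTRMT6 library 3 was above every shControl library and the other shTRMT6 libraries were below them all.

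The calls among these genes differed between fits. With the replicate number as a block, 9 of the 38 members were lower and 10 higher, against 2 lower and 9 higher without it. The block added as lower NPC1 (adjusted p = 0.00301), CTSA (0.00545), CTSL (0.0162), GAA (0.0228), CTSZ (0.0304), GLB1 (0.0337) and SCARB2 (0.0371), each with the log2 fold change given above, and added NEU1 as higher (0.0159). Over the whole table the block moved the count of calls among the 10592 tested genes to 4954, against 3746 without it. Without shTRMT6 library 3, 10 members were lower: GUSB and ATP6V0C, with NPC1 (adjusted p = 0.0175), CTSA (0.0126), GAA (0.018), GLB1 (0.0228), MCOLN1 (0.046), ATP6V0A1 (0.032), ATP6AP1 (0.0363) and TPP1 (0.0417). Without shControl library 1, 5 members were lower, namely GUSB, NPC1 (0.0264), CTSL (0.0477), SCARB2 (0.0126) and ATP6V0A2 (0.0202), and without shTRMT6 library 2 there was 1, GUSB. With the GC correction CTSD (0.35, adjusted p = 0.0159) and NEU1 (0.35, adjusted p = 0.0221) were higher and SCARB2 (−0.40, adjusted p = 0.0186) was lower.

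The MiT factors that drive lysosomal genes did not pass at the mRNA level. TFEB was low in both groups, with 2.7, 2.47 and 2.46 FPKM in shTRMT6 libraries against 2.91, 2.44 and 2.41 FPKM in shControl libraries (log2 fold change −0.02, SE 0.12, adjusted p = 0.938). TFE3 was at 37.07, 32.58 and 34.53 FPKM in shTRMT6 libraries, against 37.17, 32.21 and 31.14 FPKM in shControl libraries (0.05, SE 0.10, adjusted p = 0.723). In both genes the groups overlapped. TFE3 passed only with the GC correction, alone (0.23, adjusted p = 0.0323) or with the block (adjusted p = 0.01). Both factors are controlled largely by where the protein is in the cell, which mRNA levels do not show. MITF, another MiT factor, averaged 0.96 FPKM over the 6 libraries and was not tested. Its values were 1.31, 1.09 and 1.06 FPKM in shTRMT6 libraries, against 0.55, 0.81 and 0.95 FPKM in shControl libraries, without overlap. TFEC was listed at 0 in all 6 libraries.

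Further genes of the V-ATPase were read from a list of tissue-restricted isoforms and assembly factors. Of 10 isoform genes, 2 were abundant enough to be tested, and they went opposite ways. ATP6V1E2, the E subunit best known from testis, was at 3.49, 2.19 and 2.6 FPKM in shTRMT6 libraries, against 1.39, 1.26 and 1.45 FPKM in shControl libraries, and rose 2.02-fold by mean FPKM (log2 fold change 0.65, SE 0.14, adjusted p = 0.00406). TCIRG1, the a3 subunit of the V0 sector needed for acid secretion by osteoclasts, was at 15.18, 13.57 and 17.85 FPKM in shTRMT6 libraries, against 22.92, 22.14 and 21.81 FPKM in shControl libraries, and fell (−0.50, SE 0.11, adjusted p = 0.00439). In each of these genes the groups did not overlap.

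Of 11 tested genes that assemble or regulate the pump, none rose and 4 fell, with a median of −0.16 on the log2 scale. In all, 36.4% were past the threshold, against 35.4% of all tested genes (16.1% of all tested genes were lower). The clearest was ROGDI, a partner of the RAVE-like complex that rejoins V1 with V0, at 9.57, 7.54 and 8.01 FPKM in shTRMT6 libraries against 17.79, 13.04 and 12.81 FPKM in shControl libraries (−0.72, SE 0.14, adjusted p = 0.00174). Genes of that complex itself did not pass: DMXL1 (0.07, adjusted p = 0.711), DMXL2 (−0.16, adjusted p = 0.439) and WDR7 (−0.15, adjusted p = 0.396). TM9SF4 (−0.39, adjusted p = 0.0196), MEAK7 (−0.39, adjusted p = 0.0262) and TMEM199 (adjusted p = 0.0302), an assembly factor of the V0 sector, fell as well. The count of 4 became 1 without shTRMT6 library 1, and 2 without shTRMT6 library 2, without shControl library 3 or with no filter on low values.

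Lysosomal hydrolases and membrane proteins outside the 38 were read from further lists. Of 36 tested hydrolases, 14 fell and 2 rose (median −0.24 on the log2 scale), against 1 lower and none higher of the 15 among the 38 (16.1% of all tested genes were lower). With the replicate block 18 of the 36 and 6 of the 15 were lower, and the difference between the lists was not tested. The block also raised the count of calls over the whole table. The genes that fell include enzymes of heparan sulfate breakdown: NAGLU was at 18.84, 18.61 and 19.32 FPKM in shTRMT6 libraries, against 33.29, 31.71 and 32.17 FPKM in shControl libraries (−0.74, SE 0.09, adjusted p = 0.000136), and SGSH also fell (adjusted p = 0.0024). The sulfatases ARSA, which degrades sulfatide (4.53, 4.14 and 5.95 FPKM in shTRMT6 against 10.6, 8.7 and 9.04 FPKM in shControl; −0.84, adjusted p = 0.000612), and ARSB, which acts on dermatan sulfate (−0.68, adjusted p = 0.00139), fell without overlap. The genes that rose were CTSH, an aminopeptidase-type cathepsin (adjusted p = 0.00591), and IDS, the iduronate sulfatase (adjusted p = 0.00552). The number of these 36 hydrolases that fell was 8 without shTRMT6 library 1, 9 without shTRMT6 library 2 and 14 with the GC correction.

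Of 28 tested membrane proteins outside the 38, 11 fell and 2 rose (median −0.20). In all, 46.4% of the list passed, against 35.4% of all tested genes (16.1% lower). ABCA2, a lipid transporter of the lysosome, was at 22.26, 19.28 and 27.37 FPKM in shTRMT6 libraries, against 45.31, 45.76 and 45.77 FPKM in shControl libraries, a mean 1.99-fold lower (−0.97, SE 0.12, adjusted p = 0.00011). CTNS, the cystine exporter lost in cystinosis, was at 14.51, 13.1 and 18.13 FPKM in shTRMT6 libraries, against 26.57, 23.73 and 28.12 FPKM in shControl libraries (−0.75, SE 0.12, adjusted p = 0.000735). TMEM192 was the largest rise in the list, at 11.98, 12.76 and 15.46 FPKM in shTRMT6 libraries, against 6.38, 7.82 and 9.49 FPKM in shControl libraries (0.70, SE 0.14, adjusted p = 0.00229), and none of these 3 genes had overlapping groups. The count that fell was 4 without shTRMT6 library 1, 5 without shTRMT6 library 2, and 6 without shControl library 3 or with no filter on low values. With the GC correction 8 fell and 1 rose.

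**Figure D5:**
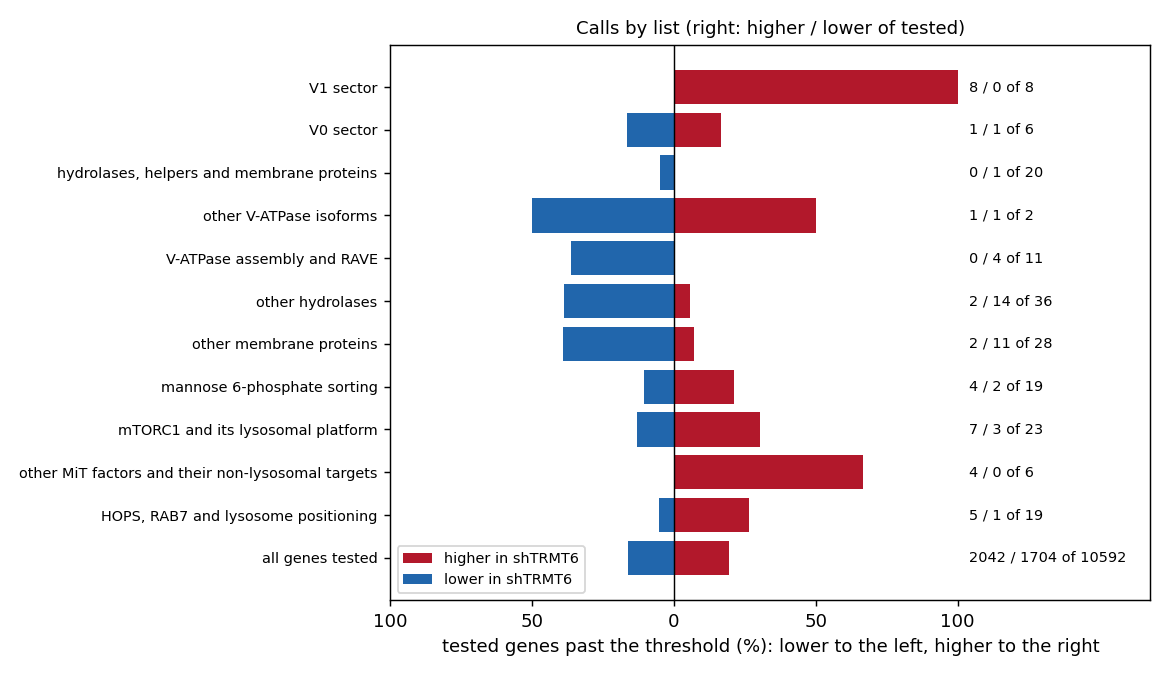
Share of the tested genes of each list past the adjusted p threshold of 0.05 (horizontal axis in percent, higher in shTRMT6 to the right and lower to the left; counts at the right edge). V1 genes lie wholly on the higher side (8 of 8), hydrolases and membrane proteins outside the 38 lie mostly on the lower side (14 of 36 and 11 of 28), and the bottom row gives all tested genes.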

How the data were processed

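The deposited values are FPKM per gene, made by the authors; per the submitters' processing notes the tools were RSEM, HISAT2, Bowtie2 2.2.8, StringTie 1.3.1 and fastp 0.18.0, with no roles stated, and the genome build is not given in the sources used here. Per the labels' protocols, mRNA-enriched libraries were made with a NEBNext Ultra kit; strand is not stated, so overlapping and antisense genes cannot be told apart. The column names NC and SH were read as shControl and shTRMT6. Symbols came from a gene name table (20257 rows) and GENCODE release 29 (30 more), which also gave coordinates, lengths and GC content (20171 rows, longest transcript; GRCh38 coordinates, not necessarily the authors' build). Of the 20289 rows, 5274 were at 0 in all 6 libraries.

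A gene was tested where its 6 libraries averaged 1 FPKM or more. The two-sided test was run in limma 3.58.1 (R 4.3.3) with a trended prior on log2(FPKM + 1); p-values were adjusted by Benjamini-Hochberg and called under 0.05. Such fold changes understate low genes. On simulated data the fit was checked first. Those data were drawn independently for each gene and library, so the check does not cover shifts that genes share within a library. The members and lists were chosen with earlier results of these data known, so no p is given for a list; counts and medians stand beside those of all tested genes. Named genes are TRMT6, the 38 members and up to 3 genes per further list past the threshold without overlap and with the largest absolute log2 fold change; other list genes were named after their values were seen. Depth was estimated from steps in low values of single-transcript genes of at most 1000 bases.

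The groups share replicate numbers. Deviations from the group means correlated at 0.206, 0.364 and 0.17 between libraries of the same number and at −0.288 to 0.094 between different numbers, so the numbers may pair the libraries, although the meaning of a number is not in the labels and such correlations within small groups are not independent. All p-values are from the fit without the block unless another setting is named. The 17 alternatives were pseudocounts of 0.1 and 0.5, no filter, a filter at a mean of 5 FPKM, median-of-ratios scaling, quantile normalization, no variance trend, a robust prior, GC correction (lowess, span 0.3), the replicate block alone and with GC correction, and each of 6 libraries left out. Promoter letters were searched on both strands, and shared sequence was counted as exact 75-base windows of the longest transcript found in other genes' transcripts.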

Additional observations from a re-analysis of the deposited data

How the results depend on the processing

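TRMT6, ATP6V1C1, ATP6V1D, ATP6V1E1, ATP6V1F, ATP6V1G1 and GUSB kept their direction and passed the test under all 17 alternatives. The number of members called lower (2) was 1 with no filter on low values, 4 with quantile normalization, 9 with the replicate block and 5 with the replicate block and GC correction. Leaving out 1 library at a time it ran from 1 to 10. The number called higher (9) was 14 with the replicate block and GC correction and ran from 5 to 9 without 1 library. Over the whole table, leaving out 1 library moved the calls between 2407 and 3618, the genes called higher between 1295 and 2027 and those called lower between 1112 and 1731; the lowest counts were those without shTRMT6 library 2. ATP6V0B turned to 0.13 (adjusted p = 0.0442) with the replicate block and GC correction. The replicate block lost no call among the members and added 8, all named above; the causes of these changes were not tested. The medians of all tested genes moved by less than 0.1 between scalings. With 3 libraries per group, changes of the size seen in most hydrolases, 0.1 to 0.3 on the log2 scale with an SE near 0.12, were not separated from 0 by the unblocked test, which does not show that those genes were equal. Values are FPKM without counts, so precision by depth is known only roughly.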

Other observations

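Genes that bring enzymes to the lysosome and that move the organelle were called about as often as the table as a whole, in which 19.3% of tested genes were higher, 16.1% lower and 35.4% called in either direction. Of 19 tested genes of mannose 6-phosphate sorting and receptor recycling, 4 rose and 2 fell (31.6% called; median log2 fold change 0.10). The rises included the 3 core subunits of retromer, which returns sorting receptors from endosomes to the Golgi: VPS26A was at 19.1, 23.88 and 18.02 FPKM in shTRMT6 libraries 1, 2 and 3, against 12.34, 14.36 and 11.73 FPKM in shControl libraries 1, 2 and 3 (log2 fold change 0.62, SE 0.12, limma adjusted p = 0.00225). VPS29 (0.46, adjusted p = 0.00263) and VPS35 (0.47, adjusted p = 0.00777) rose as well, and the groups did not overlap in any of the 3. The clathrin heavy chain gene CLTC also rose, and the sorting receptor SORT1 and the adaptor GGA3 fell; these 2 falls were lost without shTRMT6 library 1, without shTRMT6 library 2, without shControl library 3 and with no filter on low values.

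Of 19 tested genes of the HOPS tether, RAB7 effectors and lysosome positioning, 5 rose and 1 fell (31.6% called, against 35.4% of all tested genes; median 0.06); the rises numbered 3 without shTRMT6 library 1, without shTRMT6 library 2 or with no filter on low values. BLOC1S2, shared by the BLOC-1 and BORC complexes, was at 16.23, 14.88 and 13.61 FPKM in shTRMT6 libraries, against 6.4, 8.04 and 7.71 FPKM in shControl libraries, 2.02-fold by mean FPKM (0.93, SE 0.12, adjusted p = 0.000142). VPS41, of HOPS (0.84, adjusted p = 0.00187), and RILP, a RAB7 effector (0.56, adjusted p = 0.00286), rose too, while BLOC1S1, another subunit shared by BLOC-1 and BORC, fell (adjusted p = 0.00103). The other HOPS genes read here did not pass and differed in direction: VPS33A (0.28), VPS39 (0.19), VPS18 (0.06), VPS11 (−0.16) and VPS16 (−0.17).

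Of 23 tested genes of mTORC1 and its lysosomal platform, 7 rose and 3 fell (43.5% called, against 35.4% of all tested genes; median 0.08). The rises were in the platform (the Rag GTPases RRAGA, RRAGB and RRAGC and the Ragulator subunits LAMTOR2, LAMTOR3 and LAMTOR5) and in TBC1D7, a partner of the TSC complex; the falls were MTOR (−0.51, adjusted p = 0.00288), RPTOR (adjusted p = 0.0173) and TSC2 (−0.61, adjusted p = 0.00079). Not all of the platform rose: LAMTOR1 (0.13, adjusted p = 0.387) did not pass, and RRAGD was listed at 0 in every library. LAMTOR4 was lower without overlap of the groups but did not pass (−0.18, adjusted p = 0.114). RRAGB was at 2.33, 2.57 and 2.71 FPKM in shTRMT6 libraries, against 1.37, 1.4 and 1.28 FPKM in shControl libraries (0.59, SE 0.12, adjusted p = 0.00297). The count of 7 was 3 without shTRMT6 library 1, without shTRMT6 library 2, without shControl library 3 or with median-of-ratios scaling, and 4 with quantile normalization. Of 6 tested genes listed as further MiT targets, 4 rose and none fell (66.7% called, against 35.4% of all tested genes, with a median of 0.43). The rises were GABARAP (0.57, adjusted p = 0.00103), MAP1LC3B (0.54, adjusted p = 0.00131), SQSTM1 (0.49, adjusted p = 0.00189) and WIPI1 (adjusted p = 0.0184), all of autophagy. UVRAG and VPS18, a HOPS subunit, did not pass. The listed targets GPNMB and PPARGC1A were near 0 FPKM and not tested. Without shTRMT6 library 1 or without shControl library 3 the rises numbered 3.

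CD68, a glycoprotein of late endosomes and lysosomes that is used as a macrophage marker, was at 879.1, 738.42 and 996.37 FPKM in shTRMT6 libraries, against 692.04, 676.97 and 810.46 FPKM in shControl libraries, while PTPRC, CSF1R and CD163 had no value above 0.07 FPKM.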
